A study of Mus musculus with 12 samples.

Results

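The acute phase genes followed here in mouse liver RNA-seq were the serum amyloid A genes Saa1, Saa2, Saa3 and Saa4, the orosomucoid genes Orm1, Orm2 and Orm3, haptoglobin (Hp), hemopexin (Hpx) and lipocalin 2 (Lcn2). They were taken by symbol, 10 of 43346 genes in the count table, and all 10 passed the filter on low counts. Livers came from 4 groups of 3 libraries. KO livers on FFC were from S1pr1loxp/loxp;Lyz2-Cre/0 mice, which lose the sphingosine-1-phosphate receptor gene S1pr1 in cells that express Cre from Lyz2, a gene of myeloid cells, fed a diet high in fat, fructose and cholesterol. WT livers on FFC were from S1pr1loxp/loxp littermates without Cre on that diet, and KO livers on chow and WT livers on chow were from the same 2 genotypes on standard food. Mice of every group carry the floxed S1pr1 alleles, started their diet at 12 weeks of age and stayed on it for 24 weeks. The labels give no sex for the mice and do not say that each library is a separate mouse, so the p-values measure the spread between these libraries, which may be in part technical. The design asks what the diet does to the liver and whether loss of S1pr1 in myeloid cells changes that.

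In an acute phase response, cytokines such as interleukin-6, interleukin-1 and tumor necrosis factor reach hepatocytes, and the transcription factors STAT3, C/EBP-beta and NF-kappaB raise the transcription of a set of secreted plasma proteins. Hepatocytes are the main source of Saa1, Saa2, the orosomucoids, haptoglobin and hemopexin in the mouse, while Saa3 and Lcn2 are also made by macrophages, neutrophils and other cells. Cre driven by Lyz2 acts in myeloid cells and not in hepatocytes. In bulk liver RNA, a lower share of cells of a type and less RNA per cell cannot be told apart.

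Depth ranged from 18873092 to 25855609 counts in chow libraries and from 25773607 to 31154930 in FFC libraries. Genes with a count numbered 16008 to 19029 on chow and 20556 to 21308 on FFC. The TMM scaling factors were 0.759 to 0.961 on chow and 1.09 to 1.25 on FFC. The part of these differences between diets in the diet changes was not tested. S1pr1 was at 35.3 to 38.9 CPM in KO livers on FFC, 29.1 to 39.3 CPM in WT livers on FFC, 28.2 to 41.5 CPM in KO livers on chow and 27.3 to 44.4 CPM in WT livers on chow, with overlap between genotypes on both diets. Other liver cells express this gene too, so whole-liver RNA does not check the myeloid deletion. CPM here are counts divided by the TMM-scaled library size in units of 1000000 counts. Chow libraries varied more than FFC libraries across the table, with a biological coefficient of variation of 0.174 on FFC and 0.363 on chow. The library KO chow 1 stood furthest apart, with the lowest quality weight of the 12 (0.222, against 0.534 to 2.46 in the others). Hepatocyte genes were abundant in every library, with albumin at 6.16% to 14.3% of counts.

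On the FFC diet, 3 of the abundant hepatocyte products were lower than on chow. Orm1 fell in both genotypes, and Hp and Hpx fell in KO livers. In WT livers 1 of the 10 genes fell and 0 rose, where 8.03% of all 16283 tested genes fell and 8.76% rose. In KO livers 3 fell and 0 rose, where 12.8% of all tested genes fell and 13.7% rose. Averaged over both genotypes 4 fell (Orm1, Hp, Hpx and Saa3) and 1 rose (Orm3), where 16.3% of tested genes fell and 19.2% rose. The median log2 change of the 10 genes on FFC was -1.30 in KO livers and -0.42 in WT livers, against medians over all tested genes of 0.09 and 0.04. Saa1, Saa2, Orm2 and Lcn2 varied over a wide range from library to library on chow, and none of these 4 passed the test in any comparison. All tests were edgeR's quasi-likelihood test with Benjamini-Hochberg adjustment over all tested genes at 0.05, with 3 libraries a group.

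**Figure D1:**
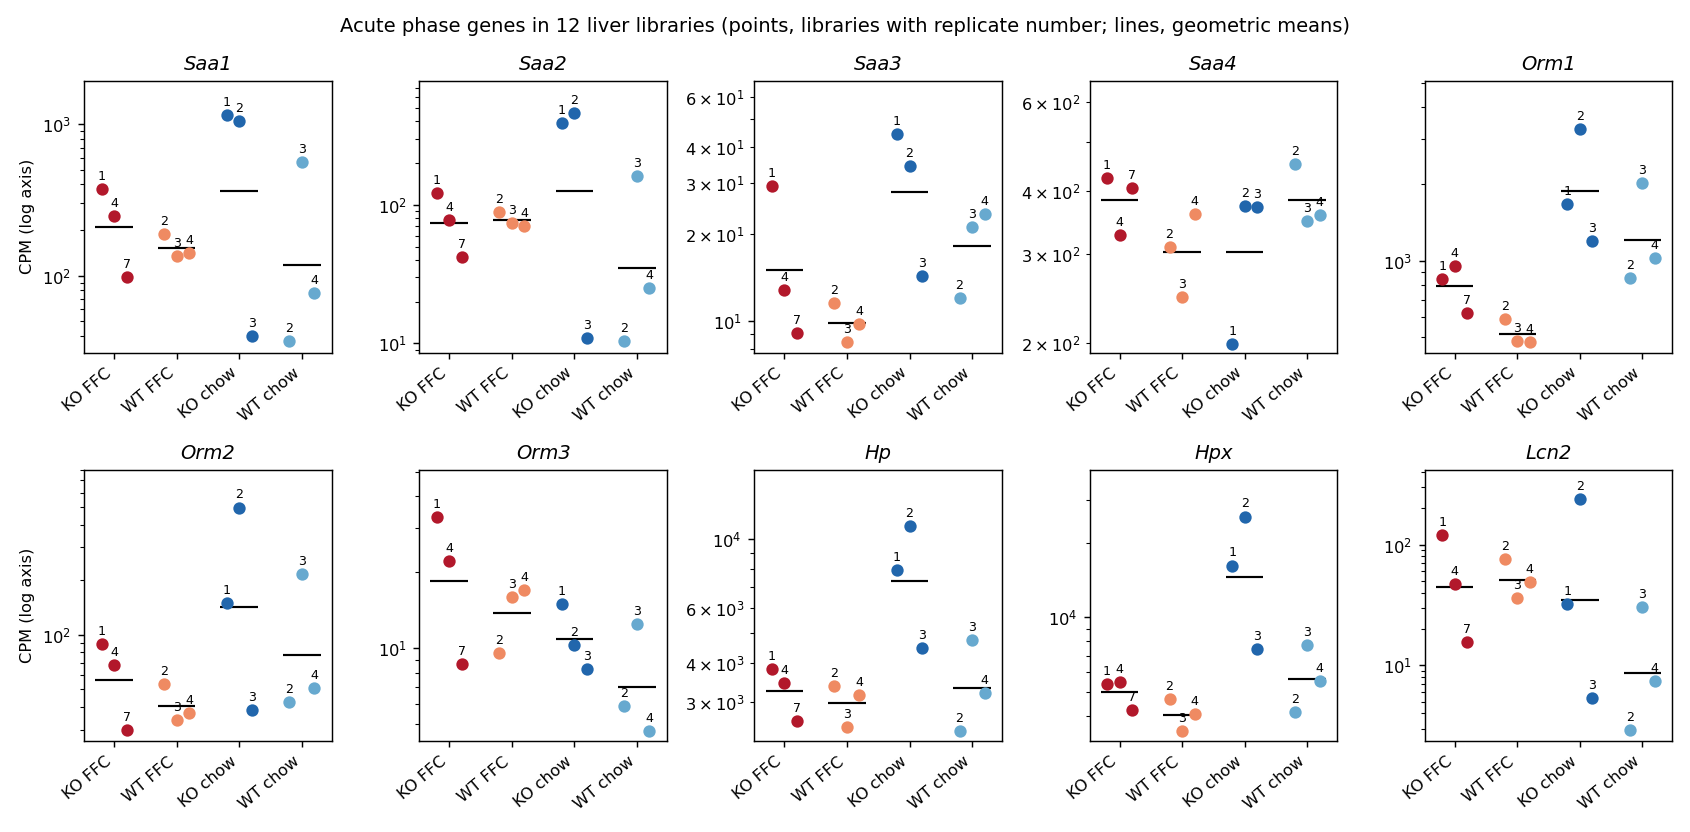
Level of each gene in CPM on a log axis (each panel has its own range) in KO FFC, WT FFC, KO chow and WT chow livers; points are libraries with their replicate number and lines are geometric means. The FFC points of Saa1, Saa2, Orm2 and Hpx lie closer together than their chow points, where the libraries KO 1, KO 2 and WT 3 lie above KO 3, WT 2 and WT 4.

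Per kilobase of gene model, the most abundant of the 10 was Hpx, with 3386 ± 465 RPKM in KO livers on FFC, 2750.2 ± 406 in WT livers on FFC, 11118 ± 6155 in KO livers on chow and 3924 ± 1240.4 in WT livers on chow (SD, n = 3 each). Hp followed with group means of 2237 to 5809 RPKM, below Hpx in every library, and Orm1 with 669 to 2651 RPKM. The group means of Saa1 and Saa2 were 256 to 1237 and 108 to 472 RPKM. Those of Saa4 were 152 to 192 and those of Orm2 53.7 to 294 RPKM. Saa3, Orm3 and Lcn2 were the lowest, with group means of 5.18 to 58.6 RPKM, and their order among themselves changed from group to group. Together the 10 genes took 0.885% to 1.31% of counts in KO livers on FFC, 0.853% to 1.18% in WT livers on FFC, 1.09% to 3.23% in KO livers on chow and 0.764% to 1.33% in WT livers on chow.

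Saa1 and Saa2 encode the serum amyloid A proteins that join high-density lipoprotein during inflammation. They lie head to head on mouse chromosome 7 (mm10, Saa1 at 46740501 to 46742980 on the minus strand, Saa2 at 46751833 to 46754314 on the plus strand), with Saa4 at 46728017 to 46732543 and Saa3 at 46711998 to 46715676, both on the minus strand. The 250 bases before the start of Saa1 (chr7:46742981-46743230, minus strand) and Saa2 (chr7:46751583-46751832, plus strand) are shown because these genes had nearly the same order of libraries, and those of Saa4 (chr7:46732604-46732853, minus strand) because it had another order. Sequences are from RefSeq on GRCm38.p6 and run 5′ to 3′ on the gene's strand. Capitals mark matches to the C/EBP motif TTGCNNAA, searched on both strands.
Saa1: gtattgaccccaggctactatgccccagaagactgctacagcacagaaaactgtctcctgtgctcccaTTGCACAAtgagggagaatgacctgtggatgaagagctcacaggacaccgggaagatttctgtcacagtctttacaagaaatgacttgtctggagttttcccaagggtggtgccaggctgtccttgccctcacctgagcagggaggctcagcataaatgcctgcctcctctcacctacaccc
Saa2: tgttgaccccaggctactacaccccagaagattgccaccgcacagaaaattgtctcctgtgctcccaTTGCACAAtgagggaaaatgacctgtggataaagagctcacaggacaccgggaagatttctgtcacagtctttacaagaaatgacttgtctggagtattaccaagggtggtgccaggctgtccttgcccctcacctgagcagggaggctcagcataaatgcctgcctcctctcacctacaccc
Saa4: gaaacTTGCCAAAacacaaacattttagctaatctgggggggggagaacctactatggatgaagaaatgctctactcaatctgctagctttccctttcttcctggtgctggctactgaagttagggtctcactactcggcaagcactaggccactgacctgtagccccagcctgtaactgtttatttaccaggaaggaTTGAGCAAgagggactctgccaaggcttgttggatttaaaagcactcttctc
The windows of Saa1 and Saa2 were 94.8% identical over 251 aligned columns, whereas Saa4 was 49.5% identical to Saa1. TTGCACAA began at position -182 before the start of Saa1 and at -183 before that of Saa2, and Saa4 had matches at -245 and -52. Windows were available for 8 of the 10 genes (not Orm1 and Hp), and all 8 held at least 1 match, where 9.564% of 32851 mouse windows of this length did. None of the 8 held TTCNNNGAA, a STAT site found in 7.02% of windows, CTGGGAA, a core of interleukin-6 response elements found in 9.102%, or the NF-kappaB consensus, found in 3.899%. The motifs were chosen after these sequences had been read, so the match counts describe the windows only.

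Saa1 had 375, 249 and 98.3 CPM in KO livers on FFC and 189, 134 and 141 CPM in WT livers on FFC, against 1157, 1049 and 39.9 CPM in KO livers on chow and 37.0, 566 and 76.8 CPM in WT livers on chow. The FFC values lay inside the chow range: 3 chow libraries (KO 1, KO 2 and WT 3) were above all 6 FFC libraries and the other 3 were below all 6. Saa2 kept this pattern, with 42.2 to 122 CPM in KO livers on FFC and 70.1 to 88.2 CPM in WT livers on FFC, against 391, 462 and 10.99 CPM in KO livers on chow and 10.4, 162 and 25.01 CPM in WT livers on chow. Neither gene passed the test for diet. The log2 change of Saa1 on FFC was -1.64 ± 1.27 (SE) in KO livers (adjusted p = 0.379) and -0.55 ± 1.24 in WT livers (adjusted p = 0.813). Of the 50-base stretches of protein-coding Saa1 transcripts, 14.8% also occur in transcripts of other genes, chiefly Saa2, so the split of reads between the copies is uncertain. The sum of both copies did not pass for diet in either genotype.

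Saa3, a serum amyloid A gene that mouse macrophages and adipose tissue also express, was much lower. It had 29.3, 12.8 and 9.09 CPM in KO livers on FFC and 11.5, 8.43 and 9.77 CPM in WT livers on FFC, against 44.6, 34.4 and 14.3 CPM in KO livers on chow and 12.0, 21.2 and 23.5 CPM in WT livers on chow. WT livers did not overlap between diets, while KO FFC 1 lay inside the KO chow range. Saa3 fell on FFC averaged over genotypes (log2 change -0.90 ± 0.32 SE, adjusted p = 0.0409). The call was lost in 9 of 12 fits that left 1 library out, by adjusted p-values of up to 0.127, and held without KO FFC 1, KO chow 3 or WT chow 2. Most macrophage markers went the other way with diet. All 12 rose in KO livers, where 13.7% of all tested genes rose. In WT livers 9 of 12 rose and 1, Marco, fell (log2 change -0.96, edgeR adjusted p = 0.041), where 8.76% of all tested genes rose and 8.03% fell. Their summed level was 688 to 897 CPM in KO livers on FFC and 620 to 719 CPM in WT livers on FFC. On chow it was 304 to 375 CPM in KO livers and 275 to 352 CPM in WT livers. The part of these markers in the Saa3 values was not tested.

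Saa4, the serum amyloid A gene known as constitutive, did not follow its neighbours. It had 425, 328 and 405 CPM in KO livers on FFC and 310.4, 247 and 361 CPM in WT livers on FFC, against 199.7, 374 and 372 CPM in KO livers on chow and 453, 349 and 359 CPM in WT livers on chow. All 12 values lay within a 2.27-fold range, with KO chow 1, the highest library for Saa1, lowest for Saa4. The mean log2 change on FFC over genotypes was -0.02 ± 0.16 (SE, adjusted p = 0.926).

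The orosomucoids are small plasma glycoproteins of the lipocalin fold that bind drugs and lipids. The 3 genes sit side by side on the plus strand of chromosome 4 (mm10, Orm1 at 63344560 to 63348163, Orm3 at 63356162 to 63359511, Orm2 at 63362449 to 63365878). The windows before Orm2 (chr4:63362199-63362448, plus strand) and Orm3 (chr4:63355908-63356157, plus strand) are shown because these near neighbours differed in their diet changes. Capitals mark TTGCNNAA and TATAAA.
Orm2: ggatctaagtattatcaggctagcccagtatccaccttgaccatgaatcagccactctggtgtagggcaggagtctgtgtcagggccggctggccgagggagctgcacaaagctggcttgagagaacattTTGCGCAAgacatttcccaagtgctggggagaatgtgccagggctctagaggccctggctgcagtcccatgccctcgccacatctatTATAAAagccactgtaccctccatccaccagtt
Orm3: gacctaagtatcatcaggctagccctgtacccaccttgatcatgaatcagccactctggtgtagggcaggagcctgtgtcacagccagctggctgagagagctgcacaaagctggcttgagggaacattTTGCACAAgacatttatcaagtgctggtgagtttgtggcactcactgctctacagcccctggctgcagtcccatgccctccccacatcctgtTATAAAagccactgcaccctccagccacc
They were 85.9% identical over 255 aligned columns. Orm2 carries TTGCGCAA at -120 and TATAAA at -33, and Orm3 carries TTGCACAA at -121 and TATAAA at -29. TATAAA occurred in 12.37% of mouse windows and in no other of the 8 windows searched here.

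Orm1 fell on FFC in both genotypes. It had 845, 950.1 and 623 CPM in KO livers on FFC and 592, 484 and 479.5 CPM in WT livers on FFC, against 1675, 3292 and 1196 CPM in KO livers on chow and 853, 2024 and 1021 CPM in WT livers on chow. The diets did not overlap within either genotype. The log2 change was -1.35 ± 0.35 (SE) in KO livers (adjusted p = 0.0115) and -1.32 ± 0.35 in WT livers (adjusted p = 0.0189). The call in KO livers held in all 12 fits that left 1 library out, with a change of -0.86 (adjusted p = 0.0463) without KO chow 2. In WT livers it was lost without WT FFC 2, WT FFC 3, WT FFC 4 or WT chow 3 (adjusted p = 0.0504 to 0.1), and without WT chow 3 the change was -0.86.

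Orm2 was lower in level and more variable. It had 88.8, 68.0 and 29.9 CPM in KO livers on FFC and 53.8, 34.2 and 36.9 CPM in WT livers on FFC, against 149, 497 and 38.4 CPM in KO livers on chow and 42.5, 213 and 50.8 CPM in WT livers on chow. The lowest chow values reached into the FFC range in both genotypes, and the mean log2 change on FFC of -1.59 ± 0.68 (SE) did not pass (adjusted p = 0.103).

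Orm3 moved the other way. It had 33.1, 22.1 and 8.66 CPM in KO livers on FFC and 9.61, 16.0 and 17.0 CPM in WT livers on FFC, against 15.0, 10.3 and 8.29 CPM in KO livers on chow and 5.90, 12.5 and 4.71 CPM in WT livers on chow. KO FFC 1, KO FFC 4, WT FFC 3 and WT FFC 4 were above every chow library, while KO FFC 7 and WT FFC 2 lay among the chow values. Averaged over genotypes it rose on FFC by 0.90 ± 0.32 on the log2 scale (SE, adjusted p = 0.0404). The call was lost in 9 of 12 fits that left 1 library out, by adjusted p-values of up to 0.0967, and held without KO FFC 7, WT FFC 2 or WT chow 3. Of 50-base stretches, 20.4% of Orm1 and 22.7% of Orm2 are shared, chiefly with each other, against 3.59% of Orm3.

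Ratios between the genes inside a library do not depend on its scaling. These 7 ratios were chosen after the levels had been seen, and each was tested by an exact two-sided permutation of the diet labels within genotype, where 400 arrangements allow no p below 0.005. Orm1 over Orm3, in RPKM, was 25.5, 42.9 and 71.7 in KO livers on FFC and 61.5, 30.2 and 28.2 in WT livers on FFC, against 111, 319 and 144 in KO livers on chow and 144, 161 and 216 in WT livers on chow. All 6 FFC values lay below all 6 chow values, a mean log2 difference of -2.10 (p = 0.005 by exact permutation, the smallest possible, adjusted p = 0.0117 over 7 ratios). It was -2.01 in KO livers and -2.20 in WT livers. Hpx over Hp also separated the diets, at 1.17 to 1.46 on FFC and 1.49 to 2.12 on chow (log2 difference -0.35, exact permutation p = 0.005, adjusted p = 0.0117). Orm3 over Orm2 was higher on FFC by 1.99 on the log2 scale (exact permutation p = 0.005, adjusted p = 0.0117), with 0.179 to 0.470 on FFC and 0.0208 to 0.217 on chow. Saa1 over Saa2, at 1.82 to 3.23 on FFC and 2.29 to 3.66 on chow, did not pass (exact permutation p = 0.055, adjusted p = 0.0963), nor did Orm1 over Orm2, Saa3 over Saa1 and Saa4 over Saa1 (exact permutation p = 0.36 to 0.85).

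**Figure D2:**
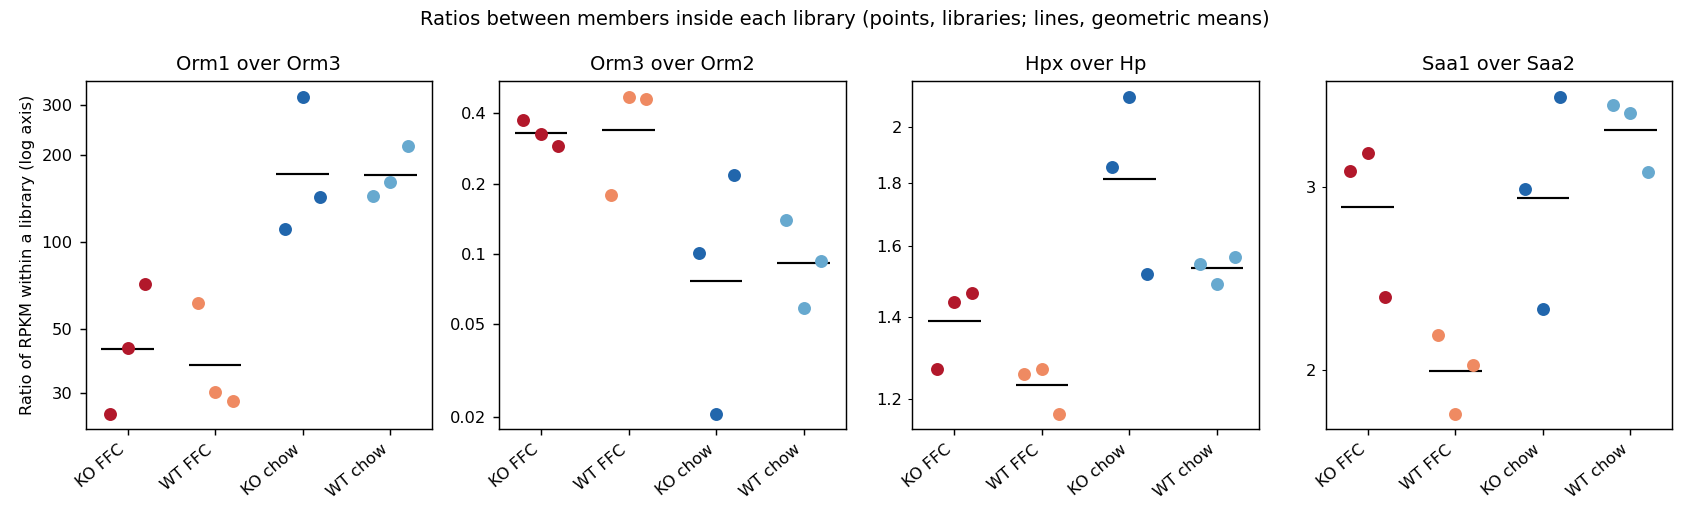
Ratio of the RPKM of 2 genes within each library, on a log axis with its own range in each panel, for KO FFC, WT FFC, KO chow and WT chow livers; points are libraries and lines geometric means. Orm1 over Orm3 is 25.5 to 71.7 on FFC and 111 to 319 on chow, and Hpx over Hp is 1.17 to 1.46 on FFC and 1.49 to 2.12 on chow.

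Haptoglobin captures free hemoglobin and hemopexin captures free heme, so both limit oxidative damage from red cell lysis. Hp lies on chromosome 8 (mm10, 109575130 to 109579172, minus strand) and Hpx on chromosome 7 (105591613 to 105600116, minus strand), and neither shares a 50-base stretch with another gene. Hp had 3824, 3439 and 2613 CPM in KO livers on FFC and 3379.6, 2488 and 3145 CPM in WT livers on FFC, against 7947, 11007 and 4452 CPM in KO livers on chow and 2419, 4729.9 and 3208 CPM in WT livers on chow. All 3 KO chow libraries were above all 3 KO FFC libraries, and the WT diets overlapped. Hp fell on FFC in KO livers (log2 change -1.24 ± 0.29 SE, adjusted p = 0.0052), and the change in WT livers was -0.20 ± 0.29 (adjusted p = 0.682). The difference between these diet effects, -1.04 ± 0.41, did not pass (adjusted p = 0.229). None of the 10 genes passed this test of the interaction, where 0.0491% of all tested genes did, and 2 (Hp and Hpx) had an unadjusted p under 0.05, as did 2622 of the 16283 tested genes; DESeq2 and voom called 0.

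Hpx had 5347, 5452 and 4213 CPM in KO livers on FFC and 4677, 3476 and 4042 CPM in WT livers on FFC, against 16226, 25631 and 7439 CPM in KO livers on chow and 4117, 7753 and 5529 CPM in WT livers on chow. The KO diets did not overlap, and WT chow 2 lay inside the WT FFC range. Hpx fell on FFC in KO livers (log2 change -1.72 ± 0.34 SE, adjusted p = 0.00198), with -0.51 ± 0.33 in WT livers (adjusted p = 0.316). The calls of Hp and Hpx in KO livers held in all 12 fits that left 1 library out. The difference between the diet effects of Hpx was -1.20 ± 0.46 (adjusted p = 0.229), and without KO chow 3 it passed for Hpx (-1.58, adjusted p = 0.0272) and for Hp (-1.35, adjusted p = 0.0446). Without KO chow 2 it was -0.76 for Hpx and -0.74 for Hp (adjusted p = 0.304 and 0.294). Over the 12 fits leaving 1 library out these p-values reached 0.425 for Hpx and 0.43 for Hp. Erythroid transcripts, which mark blood in the tissue, were 287 to 419 CPM in KO livers on FFC, 236 to 429 CPM in WT livers on FFC, 369 to 685 CPM in KO livers on chow and 354 to 698 CPM in WT livers on chow in sum. Hba-a1 and Hba-a2 fell on FFC in KO livers and none of the 5 tested did in WT livers, and their part in the Hp and Hpx values was not tested.

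Lcn2, which binds bacterial siderophores and so withholds iron, lies on chromosome 2 (mm10, 32384633 to 32388252, minus strand) and had the widest range. It had 119.8, 47.6 and 15.7 CPM in KO livers on FFC and 76.6, 35.8 and 48.8 CPM in WT livers on FFC, against 32.2, 239 and 5.33 CPM in KO livers on chow and 2.93, 30.4 and 7.47 CPM in WT livers on chow. All WT FFC libraries were above all WT chow libraries, and KO chow 2 was the highest of all 12. The log2 change on FFC was 1.99 ± 1.38 (SE) in WT livers (adjusted p = 0.381) and -0.60 ± 1.32 in KO livers (adjusted p = 0.773), and neither passed. In WT livers 3 of the 10 genes did not overlap between diets (Orm1 and Saa3 lower, Lcn2 higher), where 45.1% of all tested genes did not. In KO livers 3 did not overlap (Orm1, Hp and Hpx lower), where 39.5% of tested genes did not.
The window before the RefSeq start of Lcn2 (chr2:32387740-32387989, minus strand) is shown for comparison with that of Saa1, with TTGCTCAA in capitals at -216. It lies inside the Lcn2 gene model of the count table, which begins upstream of the RefSeq start. On chow Lcn2 tracked Orm1 (Pearson r of log2 CPM 0.98), Orm2 (0.97), Hpx, Hp and Saa2 (0.92 each) and Saa1 (0.90). With Saa3 its r was 0.78 and with Saa4 -0.32.
Lcn2: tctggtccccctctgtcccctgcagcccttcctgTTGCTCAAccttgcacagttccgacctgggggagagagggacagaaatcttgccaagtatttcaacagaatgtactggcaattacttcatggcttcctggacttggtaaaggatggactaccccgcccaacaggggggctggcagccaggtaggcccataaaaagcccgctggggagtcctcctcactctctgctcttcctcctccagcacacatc
It was 53.5% identical to that of Saa1.
Neutrophils carry Lcn2 protein in their granules. Their 13 markers summed to 8.37 to 14.1 CPM in KO livers on FFC and 9.64 to 11.2 CPM in WT livers on FFC, against 5.46 to 17.3 CPM in KO livers on chow and 4.46 to 5.01 CPM in WT livers on chow. KO chow 2, highest for Lcn2, was highest for this sum too, with S100a9 at 9.68 CPM, while Ly6g and Mpo were at 0 in all 6 chow libraries. Of the 5 markers tested, Csf3r rose on FFC in both genotypes and S100a9 was higher in KO than in WT livers on chow. The part of these cells in the Lcn2 values was not tested.

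**Figure D3:**
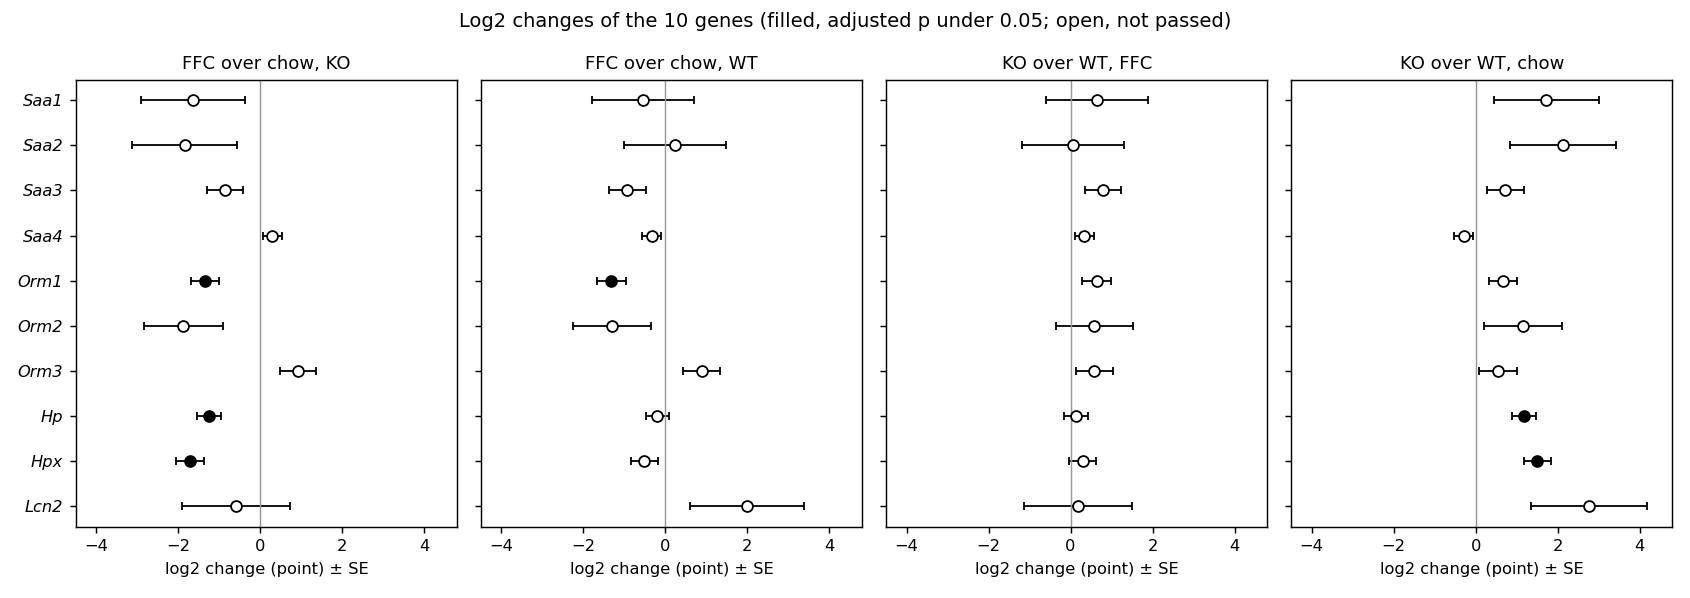
Log2 change of each gene with its standard error for FFC over chow in KO and in WT livers and for KO over WT on FFC and on chow; filled points passed an adjusted p of 0.05. Only Orm1 passed for diet in both genotypes, and the standard errors of Saa1, Saa2 and Lcn2 are above 1.2 in each comparison. Each gene has 1 spread for both diets, so the standard errors on FFC carry the spread on chow.

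Between KO and WT livers on FFC, no gene of the 10 passed (adjusted p = 1.00 each, edgeR quasi-likelihood test), where 0.0184% of all tested genes did, and 0 of the 10 reached an unadjusted p of 0.05, which 590 of the 16283 tested genes did. DESeq2 and limma's voom called 0 as well. The main fit gives each gene 1 spread for both diets, so spread on chow widens the standard errors on FFC. That of Saa2 was 1.24 on FFC, while its SD of log2 CPM within groups was 0.56 on FFC and 2.58 on chow. No gene of the 10 passed when the FFC libraries were fitted alone either. Orm1 was the 1 gene whose genotypes did not overlap on FFC, at 623 to 950.1 CPM in KO livers and 479.5 to 592 CPM in WT livers, and 21.3% of all tested genes had no overlap (log2 change 0.64 ± 0.35 SE). On chow Hpx and Hp were higher in KO livers, by 1.502 ± 0.33 and 1.18 ± 0.29 on the log2 scale (SE, adjusted p = 0.0229 and 0.0286), and 4.01% of all tested genes were higher. The groups overlapped for both, since WT chow 3 was above KO chow 3, and for all 10 genes, where 20.6% of tested genes did not overlap. The median log2 difference of the 10 genes between KO and WT on chow was 1.17, against -0.02 over all tested genes. Lcn2 (2.77 ± 1.42), Saa2 (2.13 ± 1.30) and Saa1 (1.72 ± 1.27) had larger log2 differences on chow and did not pass (adjusted p = 0.253 to 0.428). Both calls on chow were lost without KO chow 1, WT chow 2 or WT chow 4 (adjusted p = 0.0555 to 0.106), and that of Hp also without KO chow 2 (log2 difference 0.87, adjusted p = 0.0634). They were also lost when only the chow libraries were fitted (adjusted p = 0.113 for Hpx and 0.115 for Hp) and with voom quality weights (0.0972 and 0.0988).

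On chow the spread between libraries was largest for Saa2, Saa1, Lcn2 and Orm2 of the 10 genes. Within genotype groups, the SD of log2 CPM was 0.73 on FFC and 2.43 on chow for Saa1, 0.56 and 2.58 for Saa2, 1.11 and 2.27 for Lcn2, and 0.63 and 1.59 for Orm2. The median over all tested genes was 0.22 on FFC and 0.44 on chow, and 88.9% of tested genes varied more on chow. Of the 10 genes, 9 did, and Orm3 varied less (0.77 on FFC and 0.60 on chow). At least as large an SD on chow was found for 0.0307% of tested genes in the case of Saa2, 0.0553% for Saa1, 0.129% for Lcn2 and 4.1% for Orm2, and for 26.7% to 35.2% in the case of Hpx, Saa3, Orm1, Orm3 and Hp. The highest chow library exceeded the lowest 81.8-fold for Lcn2, 44.6-fold for Saa2 and 31.3-fold for Saa1, compared with 7.63-fold, 2.89-fold and 3.82-fold among FFC libraries.

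**Figure D4:**
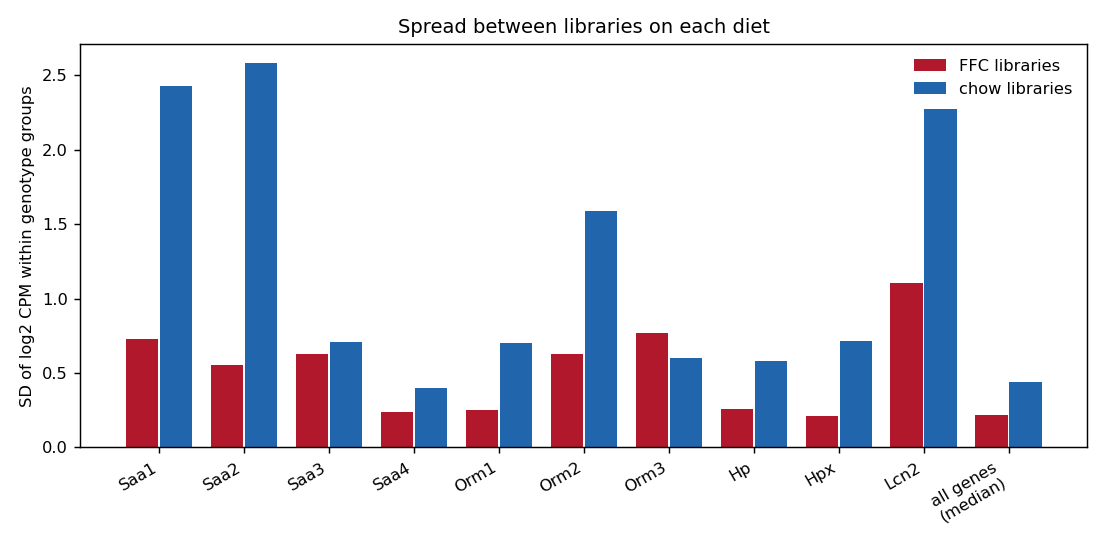
Standard deviation of log2 CPM within the genotype groups among FFC libraries (red, left) and chow libraries (blue, right) for each gene, with the median over all tested genes at the right. Saa2 has 0.56 on FFC and 2.58 on chow, and Orm3 alone has the higher bar on FFC.

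The same chow libraries were high for most of the genes. KO chow 1, KO chow 2 and WT chow 3 held the 3 highest chow ranks for Saa1, Saa2, Orm1, Orm2, Orm3, Hp, Hpx and Lcn2, and WT chow 2 was the lowest for Saa1, Saa2, Saa3, Orm1, Hp, Hpx and Lcn2. Saa4 ran otherwise, with WT chow 2 highest and KO chow 1 lowest. Over the 6 chow libraries the 28 pairs among the 8 genes other than Saa4 and Orm3 had Pearson r of log2 CPM of 0.67 to 0.997, and Saa4 had -0.78 to -0.26 with the other 9. These are descriptions over 6 points that share 2 genotypes and their scaling. The library that stood furthest apart, KO chow 1, was among the highest, and without it Orm1, Hp and Hpx remained called for diet in KO livers.

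A wider list of 24 other positive acute phase genes was set beside the 10, with 23 tested (A2m was not). On FFC 15 fell and 2 rose in KO livers, where 12.8% of all tested genes fell and 13.7% rose. In WT livers 9 fell and 2 rose, where 8.03% of all tested genes fell and 8.76% rose. The list's medians were -1.02 in KO and -0.42 in WT livers on the log2 scale. Those with the lowest p in KO livers were Serpina3m (log2 change -1.12), Itih3 (-1.54), C3 (-1.01), the central complement protein, and Itih4 (-1.07). In WT livers Serpina3m (-0.92) and Itih3 (-1.32) fell, while Il1rn, the interleukin-1 receptor antagonist, rose by 2.04 and Cd14, an endotoxin co-receptor of myeloid cells, rose by 1.85. These 4 passed in the same direction in KO livers, where Il1rn rose by 1.38 and Cd14 by 1.54. On chow 4 of 23 were higher in KO than in WT livers, namely C4b (1.42), Lbp (1.04), Itih4 (0.72) and Serpina3n (0.80), and none was lower. Of all tested genes, 4.01% were higher in KO livers on chow. On FFC 0 of 23 differed between KO and WT livers, where 0.0184% of all tested genes did.

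**Figure D5:**
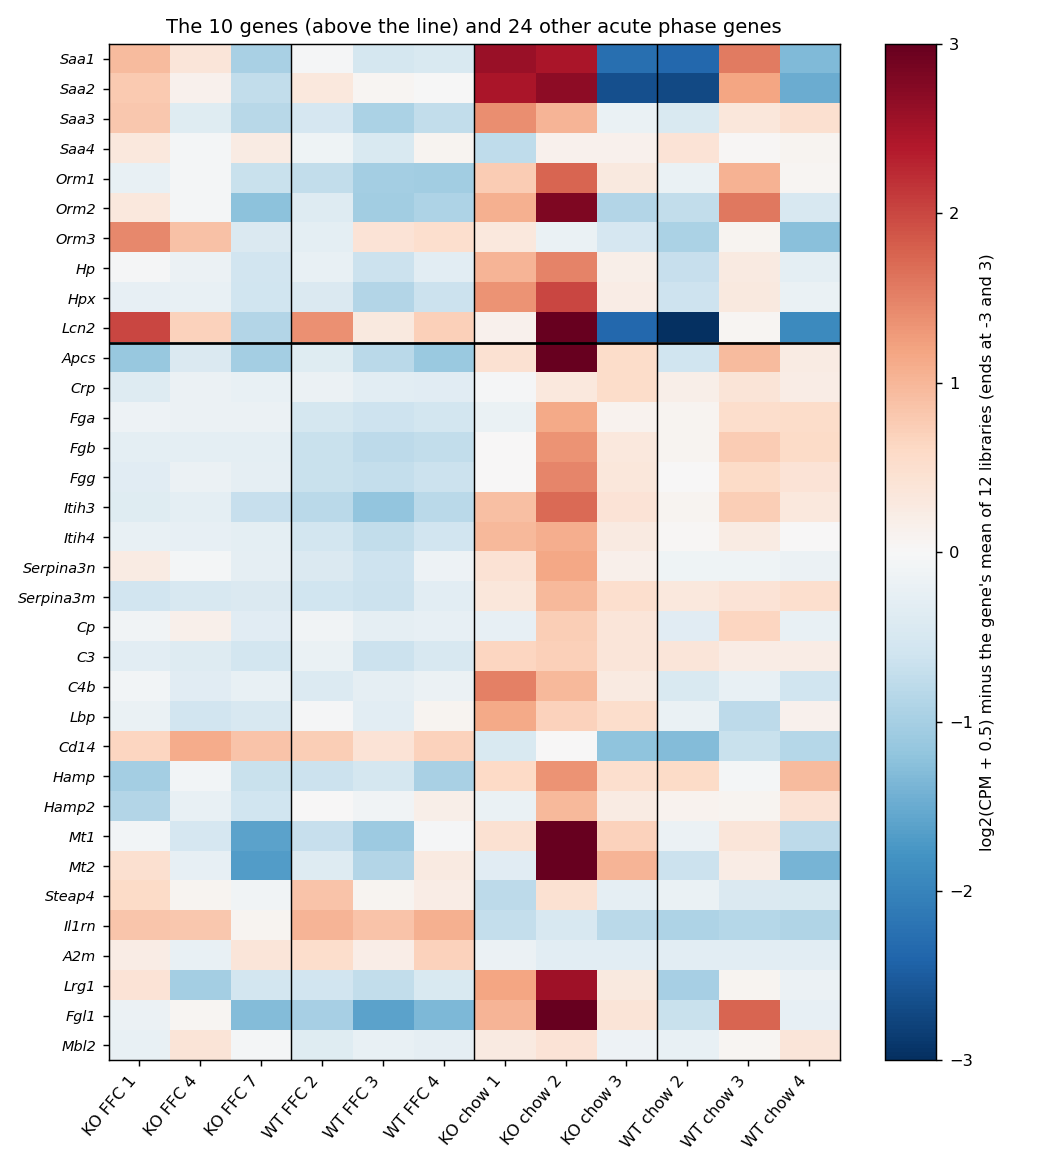
Level of the 10 genes (above the line) and 24 other acute phase genes in each library, as log2(CPM + 0.5) minus the gene's mean over the 12 libraries, with colours ending at -3 and 3. The column KO chow 2 is red in most rows, the FFC columns are mostly blue, and Orm3, Lcn2, Cd14, Steap4, Il1rn and A2m are mostly red on FFC.

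Genes known to be lowered in an acute phase response fell on FFC as well. Of 11 negative acute phase genes, 9 fell and 0 rose in KO livers and 8 fell and 0 rose in WT livers, with median log2 changes of -0.93 and -0.95. Of all tested genes, 12.8% fell in KO livers and 8.03% in WT livers. The hepatocyte proteins Ahsg and Fetub changed by -1.17 and -1.27 in KO livers and by -1.19 and -1.38 in WT livers. Hepatocyte markers, which share Alb and Ttr with the negative list, moved the same way: 8 of 12 fell in KO livers and 7 of 12 in WT livers. They summed to 93034 to 110315 CPM in KO livers on FFC and 75048 to 93553 CPM in WT livers on FFC, against 118689 to 198777 and 142707 to 207774 CPM in KO and WT livers on chow. Alb made up most of these sums, with 50541 to 84549 CPM on FFC and 86033 to 169930 CPM on chow. The part of the hepatocyte markers in the diet changes of Orm1, Hp and Hpx was not tested.

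Among the signals that drive these genes, the ligand Il6 was near absent, with 21 counts in all 12 libraries together and 0 in 6 of them. Il22 had 0 counts in every library, which per library allows up to 3 counts. Of the 13 ligands 7 could be tested. In KO livers Clcf1 (3.24), Tnf (3.26) and Il1b (1.56) rose on FFC on the log2 scale, and in WT livers Il1a rose by 1.06 and Il18 changed by -0.91, while Tnf (2.52) and Clcf1 (1.37) did not pass. The KO rises of Tnf and Clcf1 start near the floor. KO livers on chow had 0.196, 0 and 0 CPM of Tnf and 0.196, 0.204 and 0 CPM of Clcf1. Clcf1 was also lower in KO than in WT livers on chow (log2 difference -2.72, edgeR adjusted p = 0.0303). Of 19 receptors and signal transducers, 4 rose and 1 fell in KO livers and 3 rose and 2 fell in WT livers, where 13.7% and 12.8% of all tested genes rose and fell in KO livers and 8.76% and 8.03% in WT livers. Il10rb (1.28 in KO and 1.09 in WT livers) and Il6st (0.66 and 0.56) rose in both. Il1rap, the shared interleukin-1 co-receptor, fell in both (-0.60 and -0.87), and Lifr fell in WT livers (-1.63).

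Of 20 transcription factors and feedback genes, 19 were tested. In KO livers 6 fell and 3 rose on FFC, and in WT livers 5 rose and 0 fell. Of all tested genes, 12.8% fell and 13.7% rose in KO livers, and 8.03% fell and 8.76% rose in WT livers. Cebpb, which encodes C/EBP-beta, changed by -1.49 ± 0.29 (SE) in KO livers (adjusted p = 0.00157), and Cebpa by -1.01 ± 0.26 (adjusted p = 0.00876), with -0.11 and -0.12 in WT livers, which did not pass. Cebpa was at 501 CPM in KO chow 1, the library furthest apart, and at 213 and 209 CPM in KO chow 2 and KO chow 3. KO livers on FFC had 141, 168 and 149 CPM. The NF-kappaB feedback gene Tnfaip3 rose in both genotypes, by 1.67 in KO and 1.58 in WT livers. Nfkbiz (0.91 in KO and 0.82 in WT livers) and Nfkb1 (0.66 and 0.67) rose in both genotypes too. In KO livers Bcl3 changed by -1.17 (edgeR adjusted p = 0.0137) and Stat3 by -0.56 (edgeR adjusted p = 0.0266). In WT livers Bcl3 changed by 0.93 and Stat3 by -0.14, which did not pass. Relb (2.49) and Nfkb2 (0.97) rose in WT livers and had 0.90 and -0.04 in KO livers, which did not pass. The WT rise of Relb starts near the floor, with 0.336, 0.0527 and 0.802 CPM in WT livers on chow. WT livers on FFC had 2.11, 2.61 and 2.05 CPM of Relb. On chow 1 of the 19, the NF-kappaB cofactor Bcl3, was higher in KO than in WT livers (1.65 ± 0.33, adjusted p = 0.0184), a share near the 4.01% of all tested genes that were higher. The interaction passed for 0 genes of the positive, negative, ligand, receptor and transcription factor lists.

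Genes outside the list were ranked by Pearson r of log2 CPM over the 12 libraries with the mean standardised profile of the 10. Among the 5 highest were Tmem176b (0.92), Prtn3 (0.89), Tmem176a (0.88) and Gm6166 (0.87). Prtn3, the gene of a neutrophil granule protease, was at 18.2 CPM in KO chow 2 and at most 1.03 CPM in the other libraries. After each group's mean was subtracted the 5 highest were Lgals3 (0.98), Klrc1 (0.98), Tnfsf13 (0.97), Tspan4 (0.97) and Ifi27l2b (0.97). The 10 genes' own r with the profile was 0.95 for Orm2, 0.91 for Saa1, 0.90 for Hp and 0.86 for Hpx, and lowest for Orm3 (0.40) and Saa4 (-0.18). These values were picked as the highest of all tested genes and describe these 12 libraries, which share their depth scaling.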

How the data were processed

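Paired-end liver RNA-seq of 12 libraries was used. Per the labels' protocol text, reads were aligned to mm10 with TopHat 2.1.0, and the authors made the deposited raw counts per Ensembl gene with featureCounts 1.4.6, and they used edgeR 3.18.1. The Ensembl release and strand setting are not given in the sources used here. No gene of the 10 overlaps another in the annotation. Here edgeR 4.0.16 (R 4.3.3, limma 3.58.1) fitted all 12 libraries and 4 groups after filterByExpr (16283 genes) and TMM scaling, with robust glmQLFit and glmQLFTest. RPKM were computed from CPM and the deposited gene lengths. Standard errors are the log2 change over the square root of F. Replicate numbers shared by groups did not pair libraries (correlations of deviations -0.12 to 0.09). DESeq2 1.42.0, voom and other alternatives are in the closing section. The genes and lists were chosen with earlier results of these data known. Named from each list are up to 4 genes with the lowest p, and for diet also Bcl3 and Stat3. 1 gene of the ranking by likeness is not reported here. Figures used matplotlib. The macrophage marker Adgre1 is listed under its older symbol Emr1. The fit was tested on simulated counts.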

Additional observations from a re-analysis of the deposited data

How the results depend on the processing

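Of 1150 results for single genes under the alternatives, 45 lost their call, 37 gained one and 3 changed sign with a call. Called genes numbered 1 for diet in WT livers, 3 for diet in KO livers, 5 for diet averaged over genotypes, 2 for genotype on chow, and 0 for genotype on FFC and for the interaction. Leaving out 1 library gave 0 to 1, 3 to 4, 3 to 5, 0 to 2, 0 and 0 to 2 in that order. With no filter on low counts the numbers were 5, 9, 9, 8, 0 and 5. In that fit the prior degrees of freedom were infinite, so the genes' own spread was not used (the quasi-dispersion of Lcn2 was 0.77, against 32.0 with the filter). Voom with quality weights gave 3 for the average over genotypes and 0 for genotype on chow. Fitting the compared groups alone gave 2 for diet in WT livers and 0 for genotype on chow, and could not be done for the average or the interaction. Offsets for GC content and length gave 1 for genotype on chow, keeping Hpx (1.36, adjusted p = 0.0368) and losing Hp (0.80, adjusted p = 0.0995). With the Orm counts summed, the family changed by -1.29 in WT livers, -1.37 in KO livers and -1.33 on average, the sign of Orm1, which gives most of the sum, and not that of Orm3. Other causes of these changes were not tested. Saa1 over Saa2 had an exact permutation p of 0.03 without KO chow 2 and 0.045 without KO FFC 4. Size factors by median ratio, DESeq2 and summed copies kept every count within 1.5 times. The shares of all tested genes called in the alternative fits are not given here, so these counts describe the followed genes alone. With 3 libraries a group, diet changes of the size of those of Saa1, Saa2 and Lcn2 cannot be told from the spread on chow.

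With the replicate number as a block the counts were 0 for diet in WT livers, 1 for diet in KO livers (Orm3, higher on FFC, adjusted p = 0.0329), 2 for the average and 0 for genotype on chow, and it changed no count for genotype on FFC or the interaction. The numbers are only shared, with correlations of deviations of -0.12 to 0.09 over 10 pairs. Replicate 7 occurs only in KO FFC, so in the block fit KO FFC 7, low for Orm3 (8.66 CPM), did not enter the diet comparison. Leaving out KO FFC 7 without a block also called Orm3 for diet in KO livers (log2 change 1.30, edgeR adjusted p = 0.02).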
